A study of Homo sapiens with 7 samples.

Results

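MiR-204 and miR-211 are microRNAs with the same seed, the bases with which a microRNA pairs to its targets. They were taken by name from TaqMan Human MicroRNA Array A cards, on which they were 2 of 377 human microRNA assays, with 1 well each per card. The cards were run on 7 derivatives of MDA-MB-435-GFP, an established human cell line that expresses green fluorescent protein. The 3 L1-R2 lines, labelled Ol-like, were oligometastatic (few metastases), and the 4 L1Mic-R2 lines, labelled Poly-like, were polymetastatic (widespread). Each was cultured from the lung of a distinct female athymic mouse after tail vein injection and purified with G418. The L1-R2 mice had received L1-R1 cells, grown from lung macrometastases, and the L1Mic-R2 mice had received L1Mic-R1 cells, grown from the macrometastasis-free lung of the same animal. Each group therefore goes back to a single intermediate line, and the sources used here name no treatment or engineered change that separates the groups. The comparison asks in which lines these melanocyte-linked microRNAs were present, and whether their levels differed between oligometastatic and polymetastatic derivatives.

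MiR-211 lies in an intron of TRPM1 (melastatin), a gene of pigment cells, and is made from the same transcript. TRPM1 and with it miR-211 are driven by MITF, the transcription factor that sets melanocyte identity, and miR-211 is accordingly a marker of pigmented melanocytic cells that is often low in invasive melanoma. MiR-204 lies in TRPM3, a related channel gene, and is best known from the retinal pigment epithelium, choroid plexus and kidney. MDA-MB-435 was long used as a breast cancer line and is now classed as a melanoma line, which makes this pair informative about its identity.

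Mature miR-204 comes from chr9:70810031-70810052 and mature miR-211 from chr15:31065095-31065116, both on the minus strand of GRCh38.p14 (RefSeq). Their sequences are shown because the assays had to tell the pair apart. Both are written 5′ to 3′ with the seed, bases 2 to 8, in capitals.
hsa-miR-204-5p: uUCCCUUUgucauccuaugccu
hsa-miR-211-5p: uUCCCUUUgucauccuucgccu
Over 22 bases the pair is identical at 20 positions. The differences are A17U and U18C, counted from 1 at the 5′ end, with the base of miR-204 first and that of miR-211 last. Among the 2370 human mature microRNAs in the RefSeq table, these were the only 2 with the seed UCCCUUU. The hairpins from which they are cut differ far more outside the mature arm, and are shown because each lies within its host gene. The MIR204 hairpin (chr9:70809975-70810084) falls within the span of TRPM3 and the MIR211 hairpin (chr15:31065032-31065141) within that of TRPM1, each on the strand of its host. The mature 5p arm is in capitals.
MIR204: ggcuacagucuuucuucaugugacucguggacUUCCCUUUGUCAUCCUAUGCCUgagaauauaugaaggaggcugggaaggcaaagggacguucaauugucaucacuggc
MIR211: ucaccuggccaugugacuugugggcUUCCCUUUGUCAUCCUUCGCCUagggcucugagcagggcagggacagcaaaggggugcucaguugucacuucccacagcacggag

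The deposited value is the threshold cycle (Ct), the number of PCR cycles a well needs to reach a set fluorescence. One cycle is about 1 on a log2 scale, and a lower Ct means more RNA. A well that never crossed is listed as Undetermined, with an average Ct of 40. MicroRNAs with a raw Ct below 38 were called detected. They numbered 172 to 184 in the L1-R2 lines and 160 to 172 in the L1Mic-R2 lines. The control RNA U6 spanned 0.80 cycles over the 7 lines, against 2.29 for RNU44 and 2.16 for RNU48. The cards were numbered 1 to 3 for L1-R2 and 4 to 7 for L1Mic-R2, so that card order and group cannot be told apart. One card was run per line, so that the spread between lines holds the error of the assay as well. P-values set a group difference against that spread. Since each group goes back to a single intermediate line, they cannot speak for oligometastatic and polymetastatic lines in general.

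MiR-204 was detected in every line and was among the more abundant readings of each card, between the 26th and the 38th lowest Ct of the 377 microRNAs. In the L1-R2 lines its raw Ct was 25.79 (4T), 26.01 (3T) and 25.93 (8T). In the L1Mic-R2 lines it was 26.76 (2T), 26.56 (3T), 26.31 (7T) and 26.92 (8T). The groups did not overlap, and the closest lines, 3T of L1-R2 and 7T of L1Mic-R2, were 0.30 cycles apart. The means were 25.91 ± 0.12 (SD, n = 3) and 26.64 ± 0.27 (SD, n = 4), and all 7 lines fell within 1.14 cycles (exact two-sided permutation test, p = 0.0571, where 0.0286 is the smallest p the design allows). Of the 181 microRNAs detected in at least 3 lines, 13.8% were likewise lower in L1Mic-R2 without overlap on this scale.

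Quantile normalization, which gives every card the same distribution, brought the groups into contact. The means of miR-204 became 26.02 ± 0.21 (SD, n = 3) and 26.61 ± 0.30 (SD, n = 4), and L1Mic-R2 line 7T moved below L1-R2 line 8T. With limma over the 181 microRNAs, the log2 difference, L1Mic-R2 minus L1-R2, was -0.59 (standard error 0.22, 95% confidence interval -1.13 to -0.045), which corresponds to a 1.51-fold higher level in L1-R2. Its unadjusted p was 0.0379 and its limma adjusted p 0.208 (Benjamini-Hochberg), so that it did not pass the threshold of 0.05. Of the 181 microRNAs, 4.97% passed at an adjusted p under 0.05, 3.31% higher and 1.66% lower in L1Mic-R2. This share stands for 9 microRNAs, and whenever 1 line was left out the count was 0 to 4. At an unadjusted p under 0.05 the share was 19.3%, with 9.94% lower in L1Mic-R2. Neither miR-204 nor miR-211 was among the former, and miR-204 was among the latter.

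The direction for miR-204 depended on the reference. The log2 difference was -0.73 for raw Ct, -0.67 relative to U6 and -0.49 relative to the mean over microRNAs detected in every line, but 0.074 relative to RNU44 and RNU48. With U6 and with the detected mean the groups of lines did not overlap for miR-204 (exact two-sided permutation test, p = 0.0286 for each, the smallest possible). On these scales 17.1% and 10.5% of the microRNAs tested were lower in L1Mic-R2 without overlap. With RNU44 and RNU48 the groups overlapped, and the share was 2.21%. RNU44 and RNU48 themselves had log2 differences of -0.88 and -0.72 on raw Ct, with p = 0.114 and p = 0.200 in the exact permutation test. Each scale also moved the median of all microRNAs tested, to -0.25 for raw Ct, -0.19 with U6, -0.011 with the detected mean and 0.56 with RNU44 and RNU48, against 0.058 after quantile normalization. Relative to that median, the difference of miR-204 was -0.48 on these 4 scales, which shift all microRNAs of a card alike and so cannot differ in this value, and -0.65 after quantile normalization.

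**Figure D1:**
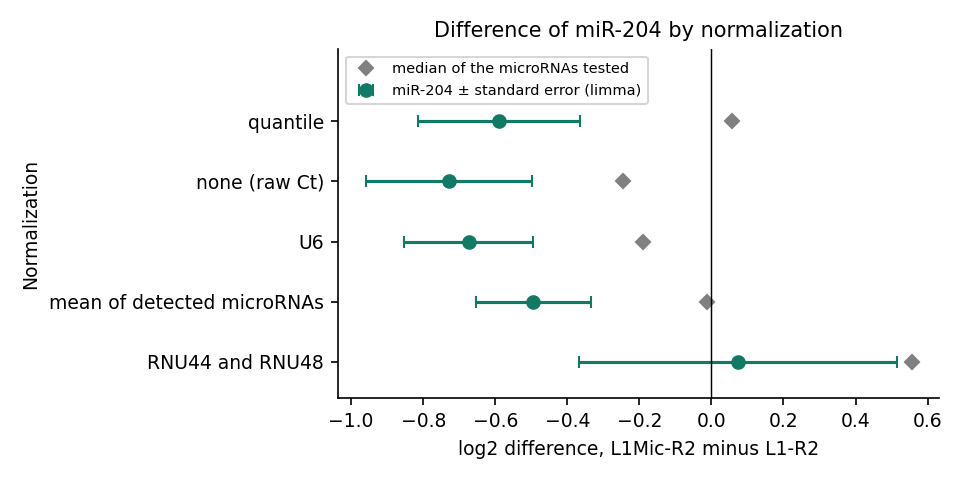
Log2 difference of miR-204 between L1Mic-R2 (n = 4) and L1-R2 (n = 3) under 5 normalizations, with the standard error from limma as bars, and the median difference of the 181 microRNAs tested as grey diamonds. MiR-204 lies to the right of 0 (0.074) only with RNU44 and RNU48, and its distance from the median is the same in the lower 4 rows by construction.

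MiR-211 was far more variable. In the L1-R2 lines its raw Ct was 30.56 (4T), 28.70 (3T) and 27.49 (8T). In the L1Mic-R2 lines it was 29.00 in line 7T and 33.33 in line 3T, and lines 2T and 8T were Undetermined. All 3 oligometastatic lines thus carried the microRNA, whereas the polymetastatic lines ranged from a level within that of L1-R2 to none measured in 40 cycles. Line 7T lay between L1-R2 lines 3T and 4T, so that the groups overlapped. The Undetermined lines read at least 9.44 cycles later than the latest L1-R2 line. In these cultures, fewer cells that express a microRNA and less of it per cell cannot be told apart.

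**Figure D2:**
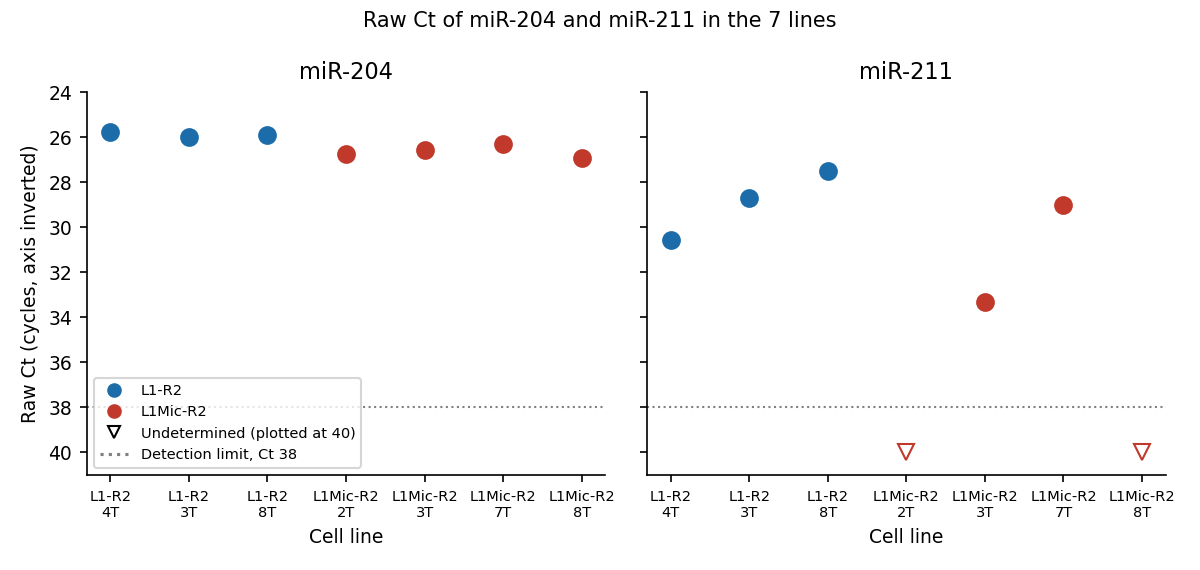
Raw Ct (cycles, inverted so that more RNA is higher) of miR-204 and miR-211 in each of the 7 lines, with Undetermined wells drawn as open triangles at 40 and the detection limit of 38 dotted. MiR-204 stays within 1.14 cycles, while miR-211 runs from 27.49 in L1-R2 line 8T to Undetermined in L1Mic-R2 lines 2T and 8T.

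The mean raw Ct of miR-211 was 28.92 ± 1.54 (SD, n = 3) in L1-R2 and, with Undetermined wells at 40, 35.58 ± 5.40 (SD, n = 4) in L1Mic-R2. After quantile normalization the log2 difference was -6.57 (standard error 2.97, 95% confidence interval -13.79 to 0.65), with a limma adjusted p of 0.267 and p = 0.114 in the exact two-sided permutation test. The size of this difference rests on the value of 40 given to an Undetermined well and is neither an estimate of a fold change nor a bound on one. Without the 2 Undetermined lines it was -2.14 (limma adjusted p = 0.628). It was -8.73 without L1Mic-R2 line 7T, with an unadjusted limma p of 0.00905. Relative to U6, to RNU44 and RNU48 or to the detected mean, the difference stayed between -6.61 and -5.86. The direction thus held with each reference, but with wells set at 40 such small shifts could hardly have turned it.

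Along the order of the levels on raw Ct, neighbouring lines were mostly close for miR-204 and in part far apart for miR-211. For miR-204 the order from most to least RNA was L1-R2 4T, 8T and 3T, then L1Mic-R2 7T, 3T, 2T and 8T, and only the step between the groups exceeded the SD of each group. For miR-211 the order was L1-R2 8T and 3T, L1Mic-R2 7T, L1-R2 4T, then L1Mic-R2 3T, with 2T and 8T tied as Undetermined. Line 3T of L1-R2 and line 7T of L1Mic-R2 differed by 0.30 cycles, less than the SD of L1-R2. The steps from L1Mic-R2 line 7T to L1-R2 line 4T (1.56 cycles) and from there to L1Mic-R2 line 3T (2.78 cycles) exceeded the SD of L1-R2 (1.54) but not that of L1Mic-R2. Within L1Mic-R2 the order on raw Ct was 7T, 3T, 2T and 8T for both microRNAs, except that the tie leaves the last 2 without an order for miR-211. The order of miR-204 depended on the scale, since after quantile normalization it ran 7T, 8T, 3T and 2T and relative to U6 8T, 7T, 3T and 2T. Within L1-R2 the orders of the pair differed. With both microRNAs determined in 5 lines, fewer than 6, no correlation between them was computed.

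The files also hold a value per well, without a heading, that lay below the threshold of 0.3 in every Undetermined well and above it in every other well, and which is read here as the fluorescence reached. For miR-211 it was 0.873 (4T), 1.32 (3T) and 1.64 (8T) in L1-R2, and 0.658 (3T) and 1.36 (7T) in L1Mic-R2. The Undetermined wells of L1Mic-R2 lines 2T and 8T read 0.264 and 0.167, below the threshold but above most other Undetermined wells of their cards. The value of line 2T exceeded 202 of the 206 Undetermined wells of its card and that of line 8T 197 of 207, where the medians were 0.0222 and 0.0225. Both values thus lay above those of most wells without a Ct and below the 0.302 to 0.412 of the 35 wells on all cards with a Ct between 39 and 40.

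The miR-211 wells were also dim for their Ct. Among wells of the same card within 1 cycle of miR-211, none of 23 (L1-R2 4T), none of 24 (L1-R2 3T), 1 of 27 (L1-R2 8T), none of 22 (L1Mic-R2 3T) and 1 of 25 (L1Mic-R2 7T) had a lower fluorescence. The medians of these neighbouring wells ran from 1.37 to 2.49. MiR-204 did not stand out in this way, with fluorescence of 2.56 to 3.48 and between 8 of 20 and 16 of 19 neighbouring wells below it. Compared between groups, the fluorescence did not pass the exact permutation test for either microRNA. It was 3.11 ± 0.35 (SD, n = 3) and 2.71 ± 0.23 (SD, n = 4) in L1-R2 and L1Mic-R2 for miR-204 (exact permutation p = 0.114). It was 1.28 ± 0.39 (SD, n = 3) and 0.612 ± 0.542 (SD, n = 4) for miR-211 (exact permutation p = 0.143). What part the shape of its amplification had in the Ct of miR-211 was not tested.

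**Figure D3:**
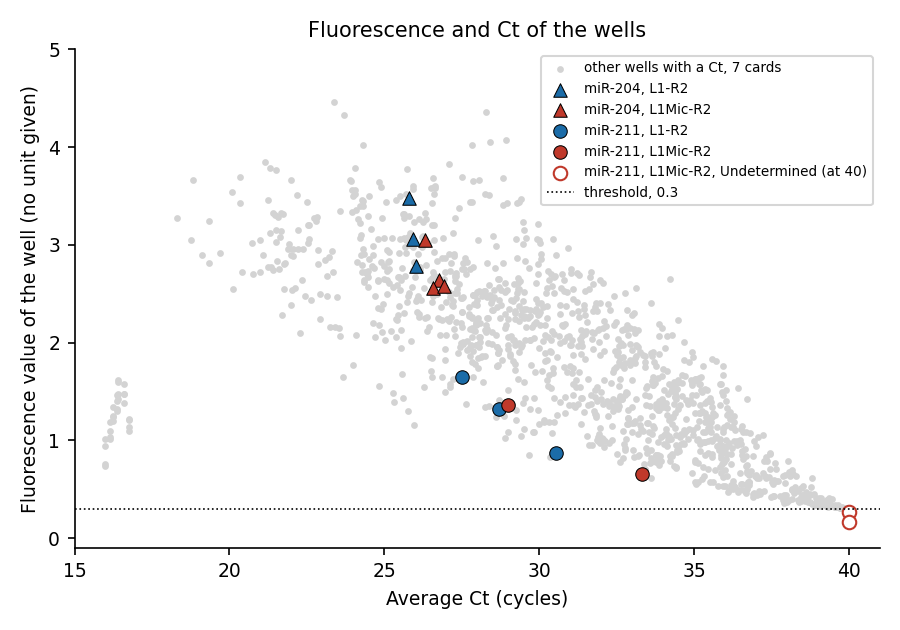
Fluorescence value of each well (no unit given) against its average Ct on the 7 cards, with the wells of miR-204 (triangles) and miR-211 (circles) coloured by group and the threshold of 0.3 dotted. The miR-211 wells run along the lower edge of the cloud, and both Undetermined wells lie under the threshold, at 0.264 and 0.167.

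Because the pair was read on the same card, the Ct of miR-204 minus that of miR-211 does not move with the input of a card. Higher values stand for more miR-211 relative to miR-204. The raw difference was -4.77 (4T), -2.68 (3T) and -1.57 (8T) in L1-R2, and -6.78 (3T) and -2.69 (7T) in L1Mic-R2. In L1Mic-R2 lines 2T and 8T it was at most -13.24 and -13.08. MiR-211 thus read later than miR-204 in all 7 lines, and its distance from miR-204 varied far more among the lines than miR-204 itself. With Undetermined wells at 40, the group means differed by -5.94 on raw Ct (exact two-sided permutation test, p = 0.114) and by -5.98 after quantile normalization (exact permutation p = 0.171), and neither passed the test. In lines 2T and 8T the miR-211 well stayed at least 13.24 and 13.08 cycles behind a strong miR-204 signal of the same sample. Whether the miR-211 assay read any of the miR-204 signal was not tested.

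Set against all microRNAs tested, miR-211 had the largest spread between lines. With Undetermined at 40, its SD over the 7 lines was 5.27 cycles after quantile normalization, the highest of 181, where the median was 0.612. All 23 microRNAs within 1 cycle of its mean Ct had a smaller SD, with a median of 0.612. Within the L1-R2 lines, where every well had a Ct, its SD of 1.60 ranked 29 of 181, against a median of 0.486. The SD of miR-204 was 0.402, rank 123 from the highest, and 14 of its 19 neighbours in Ct had a smaller one.

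**Figure D4:**
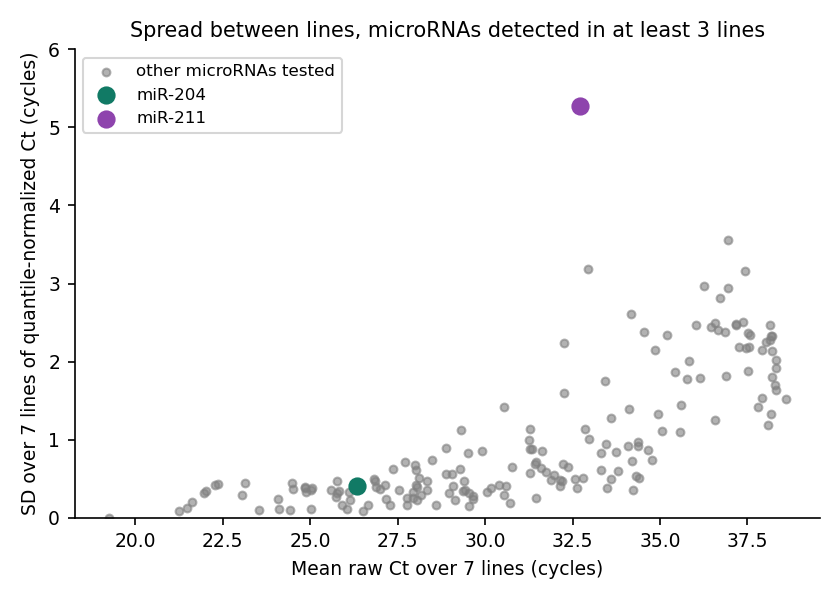
SD over the 7 lines of the quantile-normalized Ct (cycles) against mean raw Ct (cycles) for the 181 microRNAs detected in at least 3 lines, with Undetermined wells at 40. MiR-211 lies apart at 5.27, and miR-204 lies within the cloud at 0.402.

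A reading as early as that of miR-211 in one line rarely went with an Undetermined well in another. Of 86 microRNAs whose lowest Ct was under 30, miR-211 was the only one that was Undetermined in any line. Under 32 they numbered 3 of 114, namely miR-211, miR-708 (Undetermined in L1Mic-R2 line 8T) and miR-489 (Undetermined in 3 lines), the latter pair named after their values were seen. MiR-211 was also the only microRNA that was Undetermined in exactly L1Mic-R2 lines 2T and 8T and detected in the other 5, a count of 0 or 1 being found for every pair of lines. These 2 lines had the fewest detected microRNAs, 164 and 160, and the highest raw Ct of miR-204. Their U6 read 16.36 and 16.77, the latter the latest of the 7 lines, which spanned 0.80 cycles. RNU44 (25.75 and 25.97) and RNU48 (20.75 and 20.97) read later there than in every other line. The part of this in the missing Ct of miR-211 was not tested.

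The microRNAs whose quantile-normalized Ct followed the pair most closely over the 7 lines were sought among those detected in all 7. For miR-204 these were miR-20a, a MYC-driven member of a proliferation-linked cluster (Pearson r = 0.94, Spearman rho = 0.97), miR-192, a p53-responsive microRNA (r = 0.88, rho = 0.81), and the CREB-responsive miR-212 (r = 0.87, rho = 0.88), out of 134 candidates. MiR-20a moved little, within 0.654 cycles on raw Ct, and its log2 difference was -0.13. MiR-192 had the largest difference of the 3, at -1.51, which passed the threshold (limma adjusted p = 0.0392), as 1.66% of all microRNAs tested did, lower in L1Mic-R2. Its raw Ct was 28.96 (4T), 29.15 (3T) and 28.68 (8T) in L1-R2 against 31.05 (2T), 30.42 (3T), 30.11 (7T) and 31.07 (8T) in L1Mic-R2. The groups did not overlap, as for 13.8% of all microRNAs tested, lower in L1Mic-R2 on raw Ct. No microRNA passed the threshold in limma without L1-R2 line 3T, L1-R2 line 8T or L1Mic-R2 line 2T, nor relative to RNU44 and RNU48. The call of miR-192 was thus lost there, where 28 to 37 microRNAs had an unadjusted p under 0.05.

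For miR-211 the closest were miR-146b-5p, an NF-kB-responsive microRNA (r = 0.88, rho = 0.85), miR-200b, of the epithelial miR-200 family (r = 0.86, rho = 0.99), and again miR-212 (r = 0.86, rho = 0.76), out of 135 candidates. Each of the 3 had its latest readings in L1Mic-R2 lines 2T and 8T, where miR-211 was Undetermined. There miR-146b-5p read 28.72 and 29.06, against 26.72 to 27.92 in the other 5 lines. MiR-212 read 32.59 and 33.11 there, against 31.36 to 31.76. MiR-200b read 35.03 and 36.76 there, against 32.57 to 35.02, with a log2 difference of -1.39 (limma adjusted p = 0.176). The r values take the Undetermined wells of miR-211 at 40. Over the 5 lines with a Ct, too few to report as correlations, r was 0.39 for miR-146b-5p, 0.35 for miR-212 and 0.86 for miR-200b, so that the likeness of the former pair rests on the Undetermined lines. These correlations are descriptions over 7 lines that share their cards, and none of the microRNAs carries the seed of the pair.

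The other melanocytic microRNAs on the card were those of the melanoma-enriched cluster on the X chromosome, miR-506 to miR-514. Of 8 assays, 6 were detected in all 7 lines, miR-513-5p was detected in 2 and miR-507 in none. Of all 377 microRNAs on the card, 135 were detected in all 7 lines. All 6 tested had a negative log2 difference, with a median of -1.0 against 0.058 over all microRNAs tested. One passed the threshold, lower in L1Mic-R2, where 1.66% of all microRNAs tested did so. This was miR-509-3-5p, with raw Ct of 29.96 (4T), 31.54 (3T) and 30.15 (8T) in L1-R2 and 33.39 (2T), 31.89 (3T), 33.62 (7T) and 35.13 (8T) in L1Mic-R2. The groups did not overlap, as for 13.8% of all microRNAs tested, lower in L1Mic-R2 on raw Ct. The log2 difference of miR-509-3-5p was -2.71 (standard error 0.53, limma adjusted p = 0.0392), a call that was lost whenever any line was left out. MiR-508-3p was the most abundant, from 25.92 to 27.82 in raw Ct, with a difference of -0.83 (limma adjusted p = 0.0819). MiR-509-5p differed by -1.05 (limma adjusted p = 0.113) and miR-506 by -0.58 (0.579). MiR-513-5p was Undetermined in 5 lines, all 4 L1Mic-R2 lines among them, and miR-507 in 6.

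The MITF-targeting microRNAs, described as acting on the transcription factor that drives miR-211, numbered 7 on the card. Of these 6 were tested and miR-148a was Undetermined in all lines. None passed an adjusted p under 0.05 in limma. Those with an unadjusted p under 0.05 numbered 2, both lower in L1Mic-R2, as were 9.94% of all microRNAs tested. Both differences take Undetermined wells at 40. MiR-137, a repressor of MITF, had raw Ct of 34.22 (4T), 33.06 (3T) and 35.58 (8T) in L1-R2. In L1Mic-R2 it read 35.70 in line 8T and was Undetermined in the others. Its log2 difference with Undetermined at 40 was -4.21 (limma adjusted p = 0.163). MiR-218 read 34.48 (4T), 35.93 (3T) and 36.42 (8T) in L1-R2 and 35.90 in L1Mic-R2 line 7T, and was Undetermined in the other 3, with a difference of -3.07 (limma adjusted p = 0.180). The most abundant members, miR-182 and miR-340, differed by -0.45 and 0.22. The median of the list was -0.11.

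Markers of other cell types were read on the same cards. The epithelial list (the miR-200 family, miR-203 and miR-205) had 7 assays, of which 4 were tested and none passed the threshold in limma. At an unadjusted p under 0.05 there was 1, miR-200b, lower in L1Mic-R2, as were 9.94% of all microRNAs tested. The median difference was -1.33, against 0.058 over all microRNAs tested. MiR-205 was Undetermined in all lines, miR-141 was detected in none and miR-203 in 2. The earliest reading was 30.10 for miR-200c in L1-R2 line 3T (difference -1.28). The blood and endothelial list, microRNAs that mouse lung could also contribute, had 6 assays, with miR-451 and miR-142-5p Undetermined in all lines and 3 tested. The remaining assay, miR-142-3p, read 35.93 (4T) and 36.03 (3T) in L1-R2. It was Undetermined in 5 lines, all 4 L1Mic-R2 lines among them. MiR-126, the endothelial marker, read 34.50 (4T), 32.46 (3T) and 35.06 (8T) in L1-R2 and 30.98 (2T), 31.75 (3T), 28.71 (7T) and 32.41 (8T) in L1Mic-R2. It was earlier in every L1Mic-R2 line than in any L1-R2 line, although the closest lines, L1-R2 3T (32.46) and L1Mic-R2 8T (32.41), nearly met. After quantile normalization the groups did not overlap either, as for 19.3% of the microRNAs tested in both directions together (10.5% lower in L1Mic-R2). Its log2 difference was 3.44 (standard error 0.98, limma adjusted p = 0.104). MiR-150, of lymphocytes, and miR-223, of myeloid cells, differed by -3.35 and 3.07, and none of the 3 passed the threshold in limma. Summed over the list, the log2 level (40 minus Ct, summed as RNA) was 6.67 to 7.88 in L1-R2 and 7.74 to 11.29 in L1Mic-R2, and its part in the values of miR-204 and miR-211 was not tested. Such a sum mostly follows the earliest member, which was miR-126 in every line except L1-R2 8T (miR-150, 33.09). It does not stand for the list as a whole, since miR-150 and miR-142-3p went the other way from miR-126 and miR-223. The highest level of miR-126 was in L1Mic-R2 line 7T, the L1Mic-R2 line with the most miR-211 and, on raw Ct but not relative to U6, the most miR-204. Detected in all 7 lines were 6 of the 8 X-linked assays and 4 of the 7 MITF-targeting ones. So were 2 of the 7 epithelial ones (miR-200b and miR-200c) and 1 of the 6 blood and endothelial ones (miR-126). Over the whole card this held for 135 of the 377 microRNAs.

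**Figure D5:**
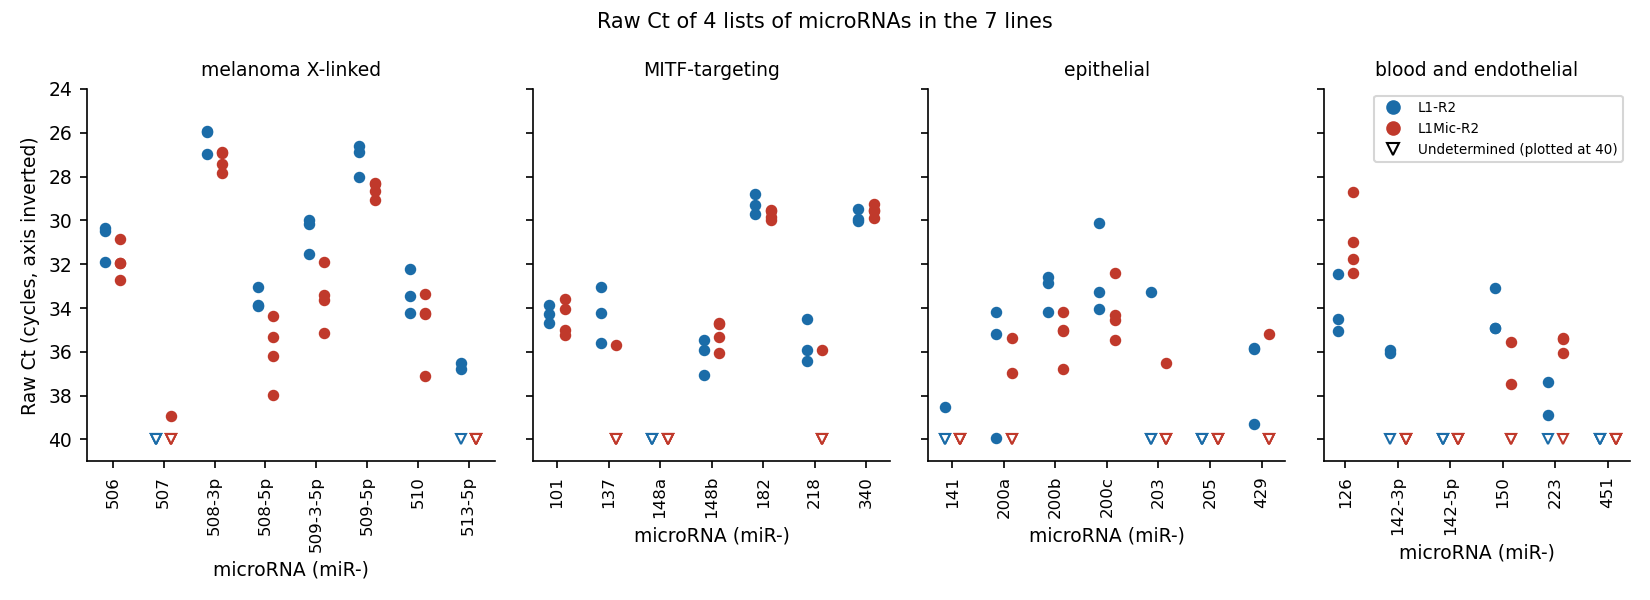
Raw Ct (cycles, inverted so that more RNA is higher) of the melanoma X-linked, MITF-targeting, epithelial, and blood and endothelial microRNAs in the L1-R2 (blue) and L1Mic-R2 (red) lines, 1 point per line, with Undetermined wells as open triangles at 40. The X-linked microRNAs miR-508-3p and miR-509-5p are the earliest, from 25.92 to 29.08, and miR-126 is earlier in every L1Mic-R2 line than in any L1-R2 line.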

How the data were processed

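MicroRNA was measured on TaqMan Human MicroRNA Array A cards (30 ng of total RNA, Megaplex reverse transcription, 7900HT). The authors deposited a threshold cycle per well from SDS RQ Manager at a threshold of 0.3, which is on a log2 scale and not normalized, with 40 for an Undetermined well. The deposited files also hold an unheaded score per well, read here as fluorescence. Groups and line numbers follow the labels, and for L1-R2 the file names swap 3T and 4T. The labels mention SYBR and the mammary fat pad where the methods of the study give TaqMan assays and tail vein injection. The latter were used.

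The 381 assays of the 7 cards were quantile normalized together, as in the study. A microRNA detected (raw Ct below 38) in at least 3 lines was tested with limma 3.58.1 (lmFit and eBayes, R 4.3.3) on 40 minus Ct, with Benjamini-Hochberg adjustment over 181 microRNAs. Single values were compared by exact two-sided permutation and Mann-Whitney tests. The fit was tested on simulated data beforehand. The number of lines, 3 against 4, limits the precision of every comparison. Alternatives were other normalizations (raw Ct, U6, RNU44 and RNU48, mean of detected microRNAs), Ct limited to 38 or to 35, other filters on detection, other fits, replicate blocks and the omission of each line. Sequences and coordinates are from RefSeq tables (GRCh38.p14), in which both microRNAs were found. Assay names without an arm were matched to the arm that the name denotes by convention.

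The pair and the 4 lists were chosen with earlier results of these data known. The microRNAs named are the pair, the control RNAs, the 3 closest to each member by Pearson correlation, and in each list those at an adjusted p under 0.05, then the most abundant and those with the smallest limma p, at most 4 in a list. List members that were not tested, or that were Undetermined in all lines, are named besides to account for every count.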

Additional observations from a re-analysis of the deposited data

Results flagged for a closer look

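In the 4 L1Mic-R2 lines, 1 line stood apart from the other 3 by Dixon's ratio (the gap to the nearest line over the whole range, judged at its 95% critical value) for 4 of the list members tested, and for neither miR-204 nor miR-211. For continuous values, chance sets 1 line apart in about 1 in 20 groups. Undetermined wells are tied at 40, so that this rate does not apply here and no excess can be read from the count. The members tested were 6 X-linked, 6 MITF-targeting, 4 epithelial, and 3 blood and endothelial. For miR-137 the ratio was 1, since line 8T read 35.70 and the others were Undetermined. For miR-218 and miR-429 it was also 1, with line 7T at 35.90 and 35.20 and the others Undetermined. For miR-223 it was 0.944, on another scale than raw Ct. Its raw Ct was Undetermined in line 7T and between 35.35 and 36.07 in the others. Among list members detected in too few lines to be tested, the ratio was also 1 for miR-203 (line 7T at 36.50) and miR-507 (line 8T at 38.93). Each of these ratios comes from Undetermined wells, all of which are listed at 40.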

How the results depend on the processing

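MiR-204 was lower in L1Mic-R2 under 19 of 20 alternatives, from -0.75 to -0.44 when each line was left out, and 0.074 with RNU44 and RNU48. The limma adjusted p ran from 0.0762 to 0.918. MiR-211 was lower under all 19 of its alternatives, from -8.73 to -2.14 (-8.73 to -5.09 with 1 line left out, limma adjusted p 0.0771 to 0.628), and could not be tested among microRNAs detected in all 7 lines. Their difference ran from -7.98 to -1.68 over 13 alternatives. The microRNAs at an adjusted p under 0.05, 9 as reported, numbered 0 with RNU44 and RNU48 and without a detection filter. With a Student test, which the study applied to its tumor samples at an unadjusted p, 0 passed as well (35 at an unadjusted p under 0.05). Called microRNAs also numbered 0 without the 2 lines Undetermined for miR-211, an alternative chosen after seeing the data. They numbered 14 among those detected in all 7 lines, 21 with the trend and robust options of limma, and 0 to 4 with 1 line left out (28 to 39 at an unadjusted p under 0.05). The count was 0 without L1-R2 line 3T, L1-R2 line 8T or L1Mic-R2 line 2T, 1 without L1Mic-R2 line 3T, 2 without L1-R2 line 4T, 3 without L1Mic-R2 line 8T and 4 without L1Mic-R2 line 7T. For the X-linked list, with 1 call as reported, the count was 0 for raw Ct, RNU44 and RNU48, the detected mean, without the 2 lines and with any line left out, and 2 among those detected in all 7 lines. With 1 line left out, the MITF-targeting list had 0 to 1 calls (1 without L1Mic-R2 line 7T or 8T) and the blood and endothelial list 0 to 1 (1 without L1Mic-R2 line 7T).

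With line numbers as a replicate block, miR-204 differed by -0.69 and miR-211 by -8.48, with 0 microRNAs and 0 of the X-linked list called by limma (19 at an unadjusted p under 0.05, 1 residual degree of freedom). By the numbers of the file names the block gave -0.56 and -7.53, again with 0 and 0 called (27 unadjusted). Deviations of same-numbered lines from their group means correlated at -0.044 (3T) and -0.20 (8T), and at 0.019 for number 3 of the file names. In each case another L1Mic-R2 line correlated higher with the L1-R2 line. With 1 correlation per shared number, this cannot settle whether the numbers mark pairs. The planned correlation of the pair across lines gave no value, with 5 lines determined for both.

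Every value rests on 1 well of 1 card, and an Undetermined well is a bound and no level. The fluorescence test and the Mann-Whitney test, also added after seeing the data, gave no p under 0.05 for miR-204 or miR-211. The Mann-Whitney test could not do so. With 3 against 4 lines its smallest p is 0.0571, which it reached for miR-204 on raw Ct.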
